A study of Mus musculus with 12 samples.

Results

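The antioxidant and glutathione genes described here are 39 genes of the NRF2 response and the enzyme systems around it, taken by symbol from the 55401 genes of the count table. They were read in 12 libraries of airway organoids, hollow epithelial spheres grown from airway cells of adult C57BL/6J mice, all of which had been transduced with a lentivirus carrying a histone H2A-mCherry fusion protein under a Trp63 promoter amplified from human DNA, so that fluorescent nuclei mark cells in which this promoter is active. In 6 dishes a femtosecond laser was used to ablate a patch of 10 adjoining cells in every organoid, and 6 untreated dishes served as control. Each dish held 45 organoids, was moved to unsupplemented FluoroBrite DMEM 1 h before treatment and was harvested 4.5 h after ablation. Ablation and control dishes carry the same numbers (1, 3, 4, 5, 6 and 7), and the dishes of a number share passage and culture day, so they form 6 pairs. Pair 1 was at day 14 and pair 3 at day 20 of passage P2+14, pair 4 at day 14 and pair 5 at day 15 of passage P2+15, and pair 6 at day 18 and pair 7 at day 19 of passage P2+16. Library numbers put pairs 1, 3 and 5 in library set 1 and pairs 4, 6 and 7 in library set 2. Although the titles of controls 4, 6 and 7 contain the word ablation, these libraries are control by treatment label and entered as such, and values from library set 1 alone are given where calls rest on them. Normalized counts are read counts divided by the size factor of their library. Their sums ranged from 27600452 to 28247162 in ablation dishes, where the median was 27700102, and from 27297950 to 28504390 in control dishes, where it was 27950316.

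NRF2, the product of Nfe2l2, is a transcription factor that KEAP1 holds in the cytoplasm and passes on for degradation. Oxidants and electrophiles modify cysteines of KEAP1, after which NRF2 accumulates, pairs with small MAF proteins and binds antioxidant response elements upstream of genes for glutathione synthesis, conjugation, thioredoxin recycling and NADPH supply. Glutathione, a cysteine-containing tripeptide, is the main thiol that airway epithelial cells use against peroxides and inhaled reactive compounds.

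Promoter sequences are shown for the members that passed the paired test after ablation, Osgin1, Nqo1 and Slc7a11, and for Gclm, a classical NRF2 target that did not, so that the stretches before their start sites can be compared. Each is the 250 bases upstream of the RefSeq start site on build GRCm38.p6, printed 5′ to 3′ on the strand of the gene. They lie at chr8:119436897-119437146 on the plus strand (Osgin1), chr8:107403206-107403455 on the minus strand (Nqo1), chr3:50443614-50443863 on the minus strand (Slc7a11) and chr3:122245307-122245556 on the plus strand (Gclm). Capitals mark matches to the antioxidant response element core TGACNNNGC (reverse complement GCNNNGTCA) and to GCGTG (reverse complement CACGC), the core of the element bound by the aryl hydrocarbon receptor, searched on both strands.
Osgin1: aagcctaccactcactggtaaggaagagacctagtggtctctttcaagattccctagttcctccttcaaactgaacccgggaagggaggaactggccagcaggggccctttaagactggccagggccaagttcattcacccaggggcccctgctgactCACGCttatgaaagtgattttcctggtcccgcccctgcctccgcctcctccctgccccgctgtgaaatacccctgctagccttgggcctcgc
Nqo1: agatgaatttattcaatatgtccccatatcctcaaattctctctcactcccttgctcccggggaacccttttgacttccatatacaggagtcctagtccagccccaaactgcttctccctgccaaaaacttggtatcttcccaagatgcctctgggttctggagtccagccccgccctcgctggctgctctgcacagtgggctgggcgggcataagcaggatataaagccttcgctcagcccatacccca
Slc7a11: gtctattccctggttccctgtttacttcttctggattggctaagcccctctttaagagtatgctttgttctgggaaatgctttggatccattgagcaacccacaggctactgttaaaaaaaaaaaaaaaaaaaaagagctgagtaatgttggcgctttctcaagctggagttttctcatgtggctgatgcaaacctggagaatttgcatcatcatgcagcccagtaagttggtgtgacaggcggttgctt
Gclm: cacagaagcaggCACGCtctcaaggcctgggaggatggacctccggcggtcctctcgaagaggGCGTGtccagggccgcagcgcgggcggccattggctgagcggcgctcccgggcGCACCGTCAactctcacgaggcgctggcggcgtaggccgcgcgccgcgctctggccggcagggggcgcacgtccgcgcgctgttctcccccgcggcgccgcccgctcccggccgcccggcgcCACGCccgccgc

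The Osgin1 stretch held 1 match to the aryl hydrocarbon receptor core and none to the antioxidant response core, those of Nqo1 and Slc7a11 held neither, and that of Gclm held 1 antioxidant response core, which begins 134 bases upstream, and 3 aryl hydrocarbon receptor cores. The RefSeq start of Osgin1 at base 119437147 lies inside the gene as GENCODE draws it, which begins at base 119434124. Of the 39 members, 32 had an entry, and 9 of these (28.1%) held the antioxidant response core in at least 1 window, compared with 11.5% of the 27025 genes in the table. The aryl hydrocarbon receptor core was found in 21 of the 32 (65.6%) and in 30.9% of all genes. The 9 were Nfe2l2, Gclm, Gsta3, Gstm5, Mgst1, Txnrd1, Prdx1, Sod1 and G6pdx. These are matches of letters in a short window and were not measured as binding. Abcc1, Gclc, Gsr, Gsta4, Hmox1, Prdx6 and Xdh were not matched.

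All 39 members passed the minimum of 10 normalized counts in 6 libraries that defined the 13792 genes tested, and none was at 0 in any dish. Together they made up 1.38 to 1.72% of all normalized counts of a dish (median 1.62% after ablation and 1.54% in the control). Per kb of exon, by the exon length deposited for each gene, the median member had 1283 normalized counts per kb, compared with 169 for all genes tested, and 38 of the 39 lay above that median. This length need not be that of the expressed transcript, so levels of different genes compare only roughly. Levels spread widely among the members. Gsto1, an omega-class glutathione transferase that also reduces dehydroascorbate, had a mean of 73820 normalized counts per kb and ranked 7th of all tested genes. Gsta4, the alpha-class enzyme that conjugates the lipid peroxidation product 4-hydroxynonenal, followed with 31715 per kb, then Gstm1 with 11206, Txn1, the cytosolic thioredoxin, with 10190, Prdx1 with 7529 and Gpx2, the gastrointestinal glutathione peroxidase, with 6104. At the other end stood Xdh, xanthine dehydrogenase, with 128.5 normalized counts per kb, Sod2 with 207, Abcc1, an exporter of glutathione conjugates, with 213 and Gstm5 with 231.

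**Figure D1:**
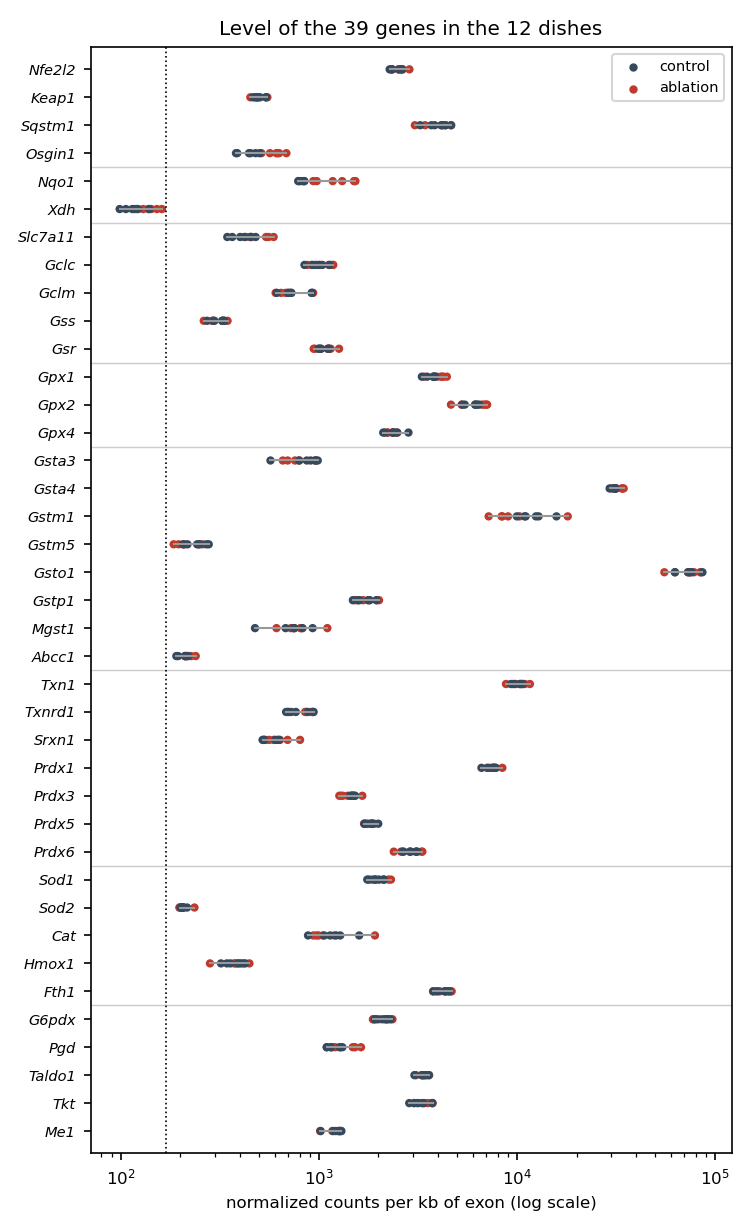
Normalized counts per kb of exon (log axis) of the 39 genes in each of the 12 dishes, grouped by role from NRF2 regulation (top) to NADPH supply (bottom); dark blue points are control dishes, red points ablation dishes and the dotted line the median of the 13792 genes tested. Gsto1 and Gsta4 lie furthest right, and Xdh is the gene whose mean lies left of the line.

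Members varied little between dishes, and 0 of them had library sets that did not overlap (background 1.17% for higher and 1.05% for lower in set 2). The ratio of the highest to the lowest of the 12 dishes ranged from 1.18 to 2.51 with a median of 1.36, compared with 1.47 over all genes tested, and it was under 2 for 36 members and for 75.5% of all genes. The widest range was that of Gstm1, from 10602 normalized counts in ablation 3 to 26569 in ablation 1. Ablation 1 also had the highest summed level of the 8 secretory cell markers (83729 normalized counts, against 30186 to 61612 in the other ablation dishes), nearly all of it Cyp2f2, and its control partner had 70551, the highest among the controls. Whether secretory cells carry the Gstm1 difference was not tested. Counts of some members can hold reads of close copies. Gstm2 had 1073 normalized counts on average beside 16507 for Gstm1, Gpx4-ps2 had 300 beside 4081 for Gpx4 and Gstp2 had 67.8 beside 2674 for Gstp1. Exons of 8 members overlap exons of genes on the other strand, which were Trmt112 for Prdx5, Ikbkg for G6pdx, Acss2 and 2 antisense genes for Gss, 4933431E20Rik for Gstm5, Mrnip for Sqstm1 (580 bases, the longest overlap), Gm17494 for Gclm, Gm16754 for Keap1 and A330041J22Rik for Me1. The partner genes had means from 2443 normalized counts for Ikbkg down to 0 for an antisense gene of Gss. Relative to the member, the most abundant partner was 4933431E20Rik, with a mean of 164 beside 295 for Gstm5. Ikbkg had 2443 beside 6463 for G6pdx and Trmt112 1408 beside 3875 for Prdx5, while Mrnip had 211 beside 13378 for Sqstm1. On the same strand Gclm overlaps Gm6061 (mean 7.96) and Tkt overlaps Mir3076 by 1 base. The libraries were stranded, but the strand setting of the counting is not given in the sources used here, so these members are uncertain to that extent.

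The labelled cell type was checked by its markers. Krt5, the keratin of airway basal cells, led the 10 basal markers with a mean of 276858 normalized counts, and the basal sum was 619884 to 796687 after ablation and 628261 to 775784 in the control. All 6 general epithelial markers were expressed. Secretory markers were mostly Cyp2f2 (mean 49001), while Scgb1a1, Bpifa1 and Muc5ac had means under 10. Multiciliated markers summed to 143 to 209 normalized counts per dish, with Tekt1 at 0 in every dish and Rsph1, the most abundant, at 128. Of the 8 macrophage and leukocyte markers 5 passed the count minimum and the list summed to 4447 to 6370 normalized counts per dish, most of it Cd14 (mean 4829), while Adgre1 was at 0 in all 12 dishes. Of the 6 alveolar type II markers 2 passed (sum 1088 to 1467), led by the lipid transporter Abca3 (mean 1125), with Sftpc and Sftpb at 0 throughout. The fibroblast list summed to 3032 to 4811, nearly all Fn1, and 2 of its 8 genes passed. None of the 5 endothelial markers passed (sum 3.95 to 16.4), and Kdr and Emcn were at 0 in every dish. In bulk libraries fewer cells of a type and less RNA per cell cannot be told apart.

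To determine which of these genes differ 4.5 h after local cell ablation, ablation and control dishes were compared. Osgin1, Nqo1 and Slc7a11 had higher values after ablation in all 6 pairs, by 1.37-fold, 1.49-fold and 1.23-fold (log2 fold changes 0.45, 0.57 and 0.30). The glutathione synthesis enzymes, peroxidases and peroxiredoxins had log2 fold changes between -0.11 and 0.14. The highest of these was Gpx1, also higher in all 6 pairs. Among the remaining members, Xdh had 0.26 and Gstm1 -0.31. Osgin1 is a stress-induced growth inhibitor, Nqo1 a quinone reductase and Slc7a11 a cystine transporter. With the library set as covariate, 0 of the 39 members and 0 of 13792 genes (0%) passed an adjusted p-value of 0.05 in limma, and 7 members, all of them higher (Osgin1, Nqo1, Slc7a11, Xdh, Nfe2l2, Sod1 and Gpx1), had an unadjusted p-value under 0.05, as did 1083 genes (7.85%, with 4.15% higher and 3.7% lower). On the recovered reads of 9 libraries, edgeR called 0 members and 0 genes (0%) and DESeq2 called Osgin1 among 12 genes (0.087%). With the pair as a block, only the 4 complete pairs of those reads (1, 5, 6 and 7) entered. There edgeR called 0 members among 2 genes (0.0145%) and DESeq2 called Osgin1 and Slc7a11 among 72 genes (0.522%). Pairs 3 and 4 were absent, so these fits differ from limma on all 6 pairs in the pairs used as well as in method. In the paired fit, which takes the pair as a block on all 12 libraries, limma called 3 members, Osgin1, Nqo1 and Slc7a11, among 150 genes (1.09%), of which 93 were higher (0.674%) and 57 lower (0.413%), and 13 members had an unadjusted p-value under 0.05 (background 17.6%), 11 of them higher (8.78%) and 2 lower (8.86%). These calls depended on the fit. With eBayes run without trend or robust estimation, the paired limma fit called 0 members and 0 genes (0%, with 2190 genes at an unadjusted p-value under 0.05), and without pair 4 it called 8 genes (0.058%), of which Osgin1 was the 1 member. Of the 39 members 24 were higher and 15 lower (28 and 11 after quantile normalization), with a median log2 fold change of 0.04 compared with -0.0036 over all genes tested. Because members were chosen with earlier results of these data known, their shares beside those of all genes are no independent test. The values rest on dishes as replicates whose labels name no separate animals. P-values of the library set fit measure the spread between dishes. Those of the paired fit measure how much the difference between ablation and control dish varied from pair to pair.

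Some cell type markers also passed the paired fit. Of the 10 basal markers 1 was called, Trp63, the transcription factor that defines basal cells and whose human promoter drives the reporter (log2 fold change 0.39, higher in 6 of 6 pairs, limma adjusted p = 0.0082, and 0.11 in library set 1 alone), with 4 of the 10 above 0 and a median of -0.08. Of the 5 secretory markers tested 1 was called, the retinaldehyde dehydrogenase Aldh1a1 (0.42, higher in 6 of 6 pairs, adjusted p = 0.0018, and 0.0389 in set 1 alone), while the other 4 had values from -0.48 to -0.16 and none passed (median of the 5 -0.19). Of the 6 general epithelial markers Sox2 was called, at -0.17 on the log2 scale (adjusted p = 0.0488, and 0.228 in set 1 alone) and lower in 6 of 6 pairs. None of these 3 was called with the library set as covariate (adjusted p = 0.187, 0.53 and 0.642). The other cell type lists held 0 calls in the paired fit. Both multiciliated markers tested were below 0 (median -0.26), as were 4 of 5 macrophage and leukocyte markers (median -0.12). For alveolar type II and fibroblast markers, 1 was above and 1 below 0 in each list (medians -0.10 and -0.05). The part of these markers in the differences of the antioxidant genes was not tested.

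**Figure D2:**
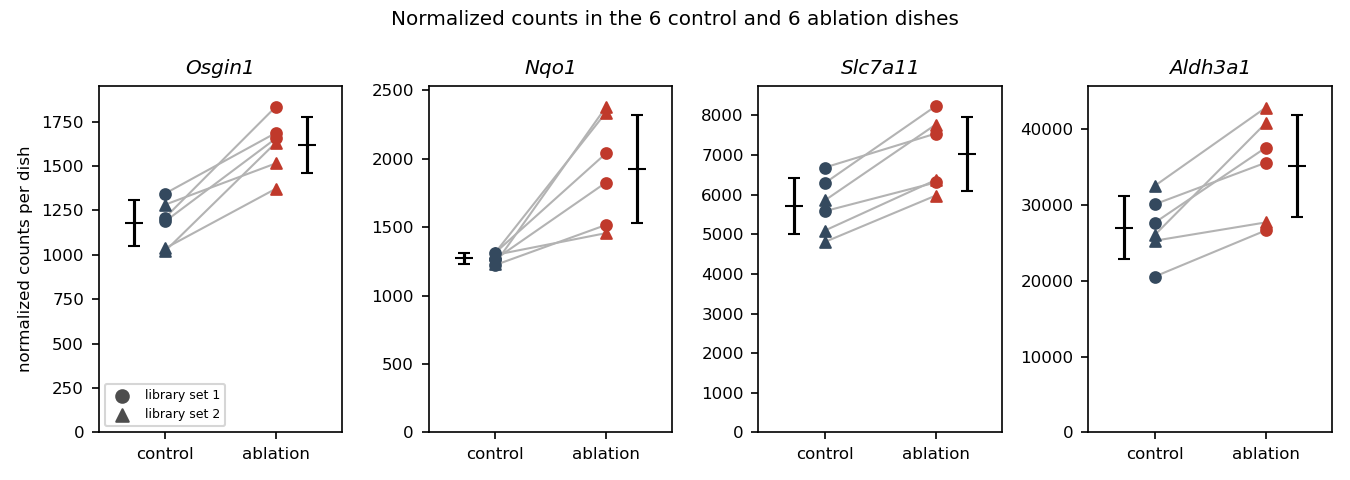
Normalized counts of Osgin1, Nqo1, Slc7a11 and Aldh3a1 in the 6 control and 6 ablation dishes, with grey lines joining the dishes of a pair, circles for library set 1, triangles for library set 2, and black bars for the mean ± SD (n = 6). Every line rises, and for Osgin1 and Nqo1 the lowest ablation dish (1372 and 1456) lies above the highest control dish (1345 and 1312).

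In the group that holds Nfe2l2, its regulators and Osgin1, the paired fit called Osgin1. Osgin1 (GRCm38.p6, chr8:119434124-119446256, plus strand) encodes an oxidative stress-induced growth inhibitor and is a known NRF2 target. In pairs 1, 3, 4, 5, 6 and 7 it had 1835, 1656, 1515, 1687, 1632 and 1372 normalized counts after ablation and 1209, 1188, 1282, 1345, 1021 and 1036 in the control. The groups of dishes did not overlap, which was so in the higher direction for 2 members and for 0.247% of all genes tested, and in the lower direction for 0 members (0.21%). The mean was 1616 ± 158 after ablation and 1180 ± 130 in the control (SD, n = 6). Its log2 fold change was 0.45 (SE 0.07, adjusted p = 0.0638 with the library set, and SE 0.06, adjusted p = 0.0041 in the paired fit). The paired log2 fold change was 0.47 in library set 1 alone (adjusted p = 0.0389) and 0.44 in set 2 alone (0.041). When 1 pair was left out at a time, Osgin1 passed the paired test in 6 of 6 fits (adjusted p from 0.0047 to 0.0145). Over 17 fits with the pair as a block it was called in 15. It was not called by limma without trend or robust estimation (adjusted p = 0.121) or by edgeR on the recovered reads of 4 complete pairs (0.0576). Over 18 fits without the block it was called in 2, by limma without the count filter and by DESeq2 on the recovered reads.

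Nfe2l2 itself ranged from 9573 to 10879 normalized counts in ablation dishes, with a median of 9927, and from 8647 to 9970 in control dishes, with a median of 8891. It was higher in 5 of 6 pairs by 0.13 on the log2 scale (adjusted p = 0.598, paired 0.119). Keap1, its inhibitor, had a log2 fold change of -0.04 (paired 95% interval -0.13 to 0.04), and Sqstm1, the autophagy receptor p62 that binds KEAP1, one of -0.01 (-0.12 to 0.09). The value of Sqstm1 was above 0 in library set 2 alone, without pair 1 and after quantile normalization. The ranges of all 3 overlapped between the groups.

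The quinone reductase Nqo1 (chr8:107388225-107403206, minus strand), which reduces quinones at the cost of NAD(P)H, had the largest log2 fold change of the 39 members in these fits. It had 2038, 1825, 2337, 1516, 2376 and 1456 normalized counts after ablation in pairs 1, 3, 4, 5, 6 and 7 and 1312, 1264, 1312, 1222, 1232 and 1297 in the control. Control dishes were close together, ablation dishes spread more, and the groups did not overlap. The log2 ratio was largest in pair 6 (0.95) and pair 4 (0.83) and smallest in pair 7 (0.17). The log2 fold change was 0.57 (SE 0.11, adjusted p = 0.187; paired SE 0.10, adjusted p = 0.0285), and it was 0.49 in library set 1 alone (paired adjusted p = 0.0389) and 0.65 in set 2 alone (0.186). Nqo1 passed the paired test in 3 of 6 fits that left out a pair, with adjusted p = 0.067 without pair 1, 0.0737 without pair 3 and 0.108 without pair 4. It was called in 9 of the 17 fits with the block. Limma called it neither without the count filter (adjusted p = 0.0503) nor without trend or robust estimation (0.134). On the recovered reads of 4 complete pairs, neither edgeR (adjusted p = 0.131) nor DESeq2 (0.198) called it. Without the block, Nqo1 was called in 0 of 18 fits.

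Nqo1 is also a target of the aryl hydrocarbon receptor. Of the 6 aryl hydrocarbon receptor genes listed, 3 passed the count minimum, and the 6 summed to 7461 to 15323 normalized counts after ablation and 4724 to 7525 in the control. Cyp1b1, a cytochrome P450 and the most abundant of them, exceeded its control in 6 of 6 pairs, by 1.08 on the log2 scale (adjusted p = 0.239, paired 0.076), and Tiparp had 0.18 (paired adjusted p = 0.184). Cyp1a1, under the count minimum, had 338.7 normalized counts in ablation 3 and 287.3 in ablation 6 but 1.98 to 20.5 in the other ablation dishes and 0 to 2.87 in the control. Nqo1 was highest in ablations 6 and 4. The part of this receptor in the Nqo1 difference was not tested. Xdh, which oxidizes purines and can give off superoxide and hydrogen peroxide, had 1069 to 1481 normalized counts after ablation and 907 to 1278 in the control, exceeded its control in 5 of 6 pairs and differed by 0.26 on the log2 scale (adjusted p = 0.551, paired 0.0613). The groups overlapped, with control 7 above 3 of the ablation dishes.

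Among the glutathione supply genes, the paired fit called the cystine transporter and none of the 4 enzymes. Slc7a11 (chr3:49892526-50443614, minus strand), the light chain of the cystine and glutamate antiporter that brings in cystine for glutathione, had 7540, 8233, 5975, 6307, 6368 and 7767 normalized counts after ablation in pairs 1, 3, 4, 5, 6 and 7 and 6683, 6291, 4805, 5582, 5093 and 5854 in the control. Dishes of the groups overlapped, since controls 1 and 3 were high, but each ablation dish was above its own control. The log2 fold change was 0.30 (SE 0.08, adjusted p = 0.486; paired SE 0.04, adjusted p = 0.009), and 0.25 in library set 1 alone (paired adjusted p = 0.122) and 0.35 in set 2 alone (0.0194). It passed the paired test in 5 of 6 fits that left out a pair and had adjusted p = 0.0555 without pair 4. Over the 17 fits with the block it was called in 13. It was called neither by limma without trend or robust estimation (adjusted p = 0.121) nor by edgeR on the recovered reads of 4 complete pairs (0.115). Without the block, Slc7a11 was called in 0 of 18 fits.

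Gclc and Gclm, the catalytic and modifier subunits of the enzyme that makes the first and rate-limiting bond of glutathione, had paired log2 fold changes of 0.08 (95% interval -0.01 to 0.18) and -0.11 (-0.26 to 0.05). The corresponding values were -0.06 (-0.15 to 0.04) for Gss, glutathione synthetase, and 0.05 (-0.05 to 0.15) for Gsr, which reduces oxidized glutathione. In each of these 4 genes the groups of dishes overlapped. The 3 glutathione peroxidases, which use glutathione to reduce peroxides, gave 0.14 for Gpx1 (0.05 to 0.22, higher in 6 of 6 pairs, paired adjusted p = 0.12), 0.05 for Gpx2 (-0.05 to 0.16) and -0.02 for Gpx4 (-0.12 to 0.08), the enzyme that acts on lipid peroxides.

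Of the 8 transferase and export genes, 0 passed either fit. Gstm1, a mu-class transferase, had 12847 normalized counts as median after ablation (10602 to 26569) and 17333 in the control (14713 to 23317), and was lower in 5 of 6 pairs. Its log2 fold change was -0.31 (adjusted p = 0.717, paired 0.0897). The exception was pair 1, where ablation 1 had 26569 and control 1 23317 normalized counts, and without that pair the log2 fold change was -0.41 with a paired adjusted p-value of 0.0041. Gstm5, also of the mu class, was lower in 6 of 6 pairs (log2 fold change -0.17, paired adjusted p = 0.241), as were 4.63% of all genes, with 237 to 331 normalized counts after ablation and 263 to 356 in the control. Gsta4 was higher in 6 of 6 pairs by only 0.08 (95% interval -0.0005 to 0.16). For Gsto1, the most abundant member, the log2 fold change was 0.04 (-0.09 to 0.18), with 112204 to 171450 normalized counts after ablation and 126827 to 174608 in the control; it was below 0 in library set 1 alone and without pair 6.

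In the thioredoxin system, which reduces protein disulfides and peroxiredoxins, 0 of 7 members passed either fit. For Txnrd1, cytosolic thioredoxin reductase, the log2 fold change was 0.15 (paired 95% interval 0.03 to 0.27, adjusted p = 0.184), Srxn1, the sulfiredoxin that repairs overoxidized peroxiredoxins, 0.15 (0.04 to 0.26, higher in 6 of 6 pairs, adjusted p = 0.156), and Prdx1 and Txn1 0.05 each. Prdx3, Prdx5 and Prdx6 had -0.08, -0.05 and -0.02, respectively. Txnrd1 had the lowest p-value for a difference between library sets, with a log2 fold change of -0.0006 in set 1 and 0.30 in set 2. The test of this difference gave 0.30 (SE 0.07, unadjusted p = 0.001, adjusted p = 0.314), and over all members 4 had an unadjusted p-value under 0.05 for a different response (Txnrd1, Gpx4, Xdh and Gpx2, background 7.88%), of which 2 had the more positive difference in set 2 (3.69%) and 2 in set 1 (4.19%), and 0 passed after adjustment, compared with 1 of 13792 genes (0.00725%).

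Superoxide, catalase, heme and iron genes showed no call in either fit (0 of 5). Sod1, cytosolic superoxide dismutase, was higher in 6 of 6 pairs, with 7358 to 9183 normalized counts after ablation and 6971 to 8448 in the control (log2 fold change 0.13, paired adjusted p = 0.0935). Hmox1, the inducible heme oxygenase, had 494 to 782 normalized counts after ablation and 562 to 745 without it, a log2 difference of 0.03 (95% interval -0.09 to 0.15). The paired interval was -0.12 to 0.11 for Fth1, the ferritin heavy chain, -0.07 to 0.09 for Sod2, the mitochondrial dismutase, and -0.20 to 0.10 for Cat, catalase. Among the 5 NADPH suppliers, Pgd of the pentose phosphate pathway was higher in 6 of 6 pairs by 0.17 (0.08 to 0.26, paired adjusted p = 0.0756) and Tkt by 0.09 in 5 of 6 pairs (0.01 to 0.16, 0.23), whereas G6pdx, the entry enzyme of the pathway, had -0.02, Taldo1 0.01 and Me1, malic enzyme, -0.0021.

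**Figure D3:**
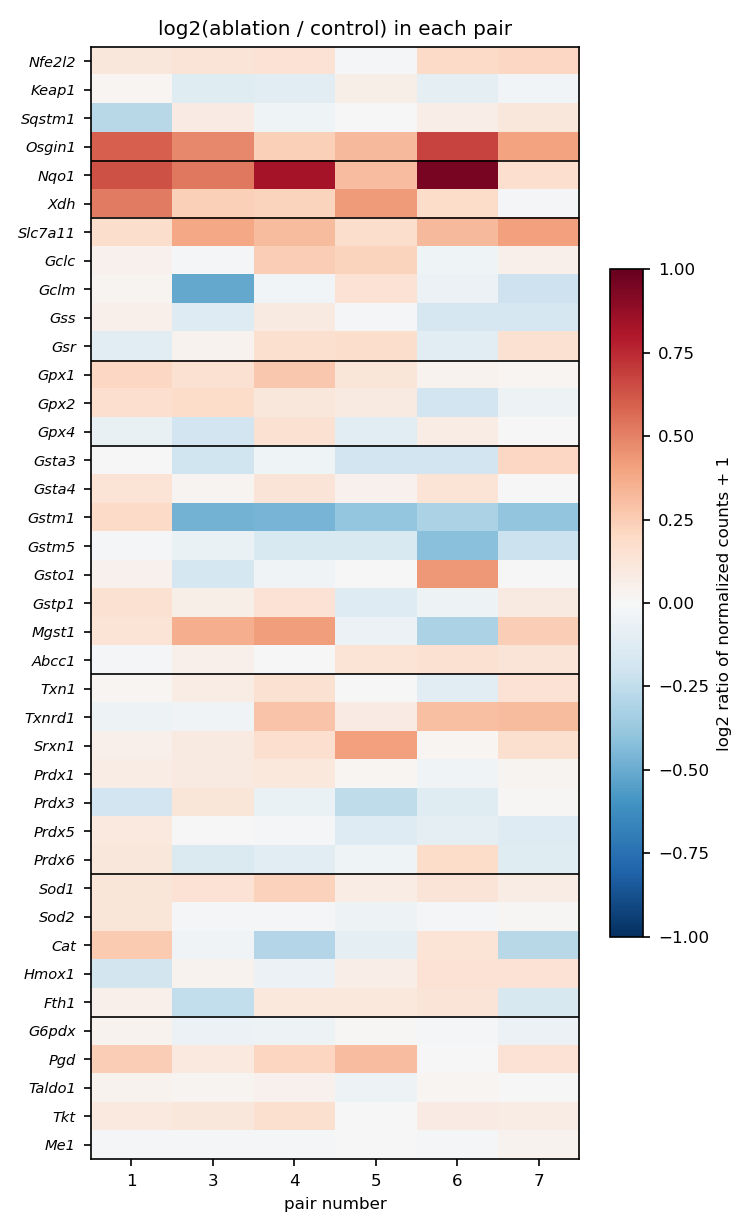
Log2 ratio of ablation to control in each of the 6 pairs (columns) for the 39 genes (rows), grouped by role as in the plot of levels, in red where ablation was higher and blue where it was lower (scale -1 to 1). Osgin1, Nqo1 and Slc7a11 are red in every column, and Gstm1 is blue in every column but pair 1.

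Higher values in all 6 pairs were seen for 8 members (Osgin1, Nqo1, Slc7a11, Pgd, Sod1, Gpx1, Srxn1 and Gsta4), compared with 5.17% of all genes tested, and lower values in all 6 for Gstm5 alone. Members were chosen with earlier results of these data known, so this comparison is no independent test. Most of these differences were small. The paired fold changes of Pgd, Sod1, Gpx1, Srxn1 and Gsta4 were 1.12, 1.09, 1.10, 1.11 and 1.06.

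**Figure D4:**
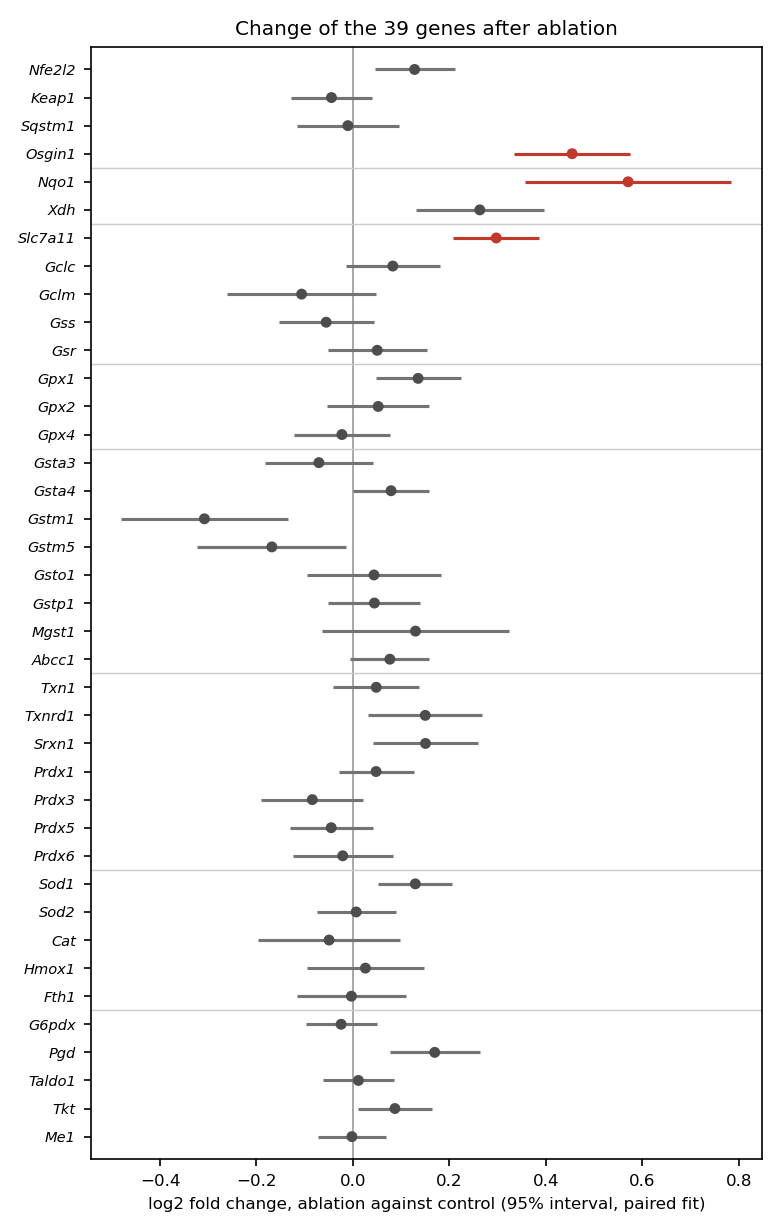
Log2 fold change of each of the 39 genes, ablation against control, with its 95% interval in the paired limma fit; red marks the genes with an adjusted p-value under 0.05. The intervals of Osgin1 (0.33 to 0.57), Nqo1 (0.36 to 0.78) and Slc7a11 (0.21 to 0.39) lie furthest above 0, and most others include 0.

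A list of 81 further genes of the same pathways, of which 68 passed the count minimum, gave 0 calls with the library set (background 0%) and 1 in the paired fit, where 1.09% of all genes were called and 1 of 68 is near that share. Of the 68 genes 27 were above 0 and 41 below, with a median log2 fold change of -0.02, compared with 6689 above and 7103 below over all 13792 genes (48.5% above) and a median of -0.0036. The counts by group that follow are of the sign alone and were not tested. The call was Aldh3a1, an aldehyde dehydrogenase that NRF2 and the aryl hydrocarbon receptor both induce, among 20 other NRF2 target enzymes. Aldh3a1 (chr11:61207537-61218421) had 37500, 26604, 42774, 35526, 40716 and 27665 normalized counts after ablation in pairs 1, 3, 4, 5, 6 and 7 and 27628, 20530, 32478, 30053, 26001 and 25256 in the control, higher in every pair. Its log2 fold change was 0.37 (SE 0.13, adjusted p = 0.572; paired SE 0.06, adjusted p = 0.012), and its paired adjusted p-value was 0.069 without pair 4, 0.0557 in library set 1 alone and 0.0893 in set 2 alone. It was called in 11 of the 17 fits with the block. On the recovered reads of 4 complete pairs, neither edgeR nor DESeq2 called it (adjusted p = 0.131 and 0.294). Limma without trend or robust estimation did not call it either (0.133). Without the block, Aldh3a1 was called in 0 of 18 fits. Gsta2, an alpha-class transferase of low abundance, had 32.1 to 99.4 normalized counts after ablation and 21.0 to 52.1 in the control (log2 fold change 0.80, higher in 6 of 6 pairs, paired adjusted p = 0.0525). Of the 7 other NRF2 regulators 6 were above 0, with the largest log2 fold change for the small MAF protein Maff (0.30, paired adjusted p = 0.303). Maff was below 0 in library set 1 alone, and the paired fit called it higher in set 2 alone. Of the 10 other thioredoxin genes 9 were below 0, the largest being -0.21 for Msrb2, a methionine sulfoxide reductase (paired adjusted p = 0.381). Of the 12 genes of other glutathione metabolism that were tested 9 were below 0, and Ggt1, which breaks down extracellular glutathione, had -0.41 at 5.85 to 30.6 normalized counts after ablation (paired adjusted p = 0.447) and -0.13 without pair 1. Of the 15 other transferases tested 10 were below 0. Of the 10 oxidant producing enzymes and partners 4 were tested, with 0 called, and Duox1 had the largest log2 fold change (0.07), which was below 0 in library set 2 alone and without pair 5.

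Culture day was the second variable, with pairs 1, 4 and 5 at days 14 and 15 and pairs 3, 6 and 7 at days 18 to 20. Late cultures had lower levels of 30 of the 39 members, with a median log2 difference of -0.10 compared with 0.0026 over all genes tested, but the test on the 6 pair means called 0 members and 1 of 13792 genes (0.00725%). All 5 NADPH suppliers and 7 of 8 transferase and export genes were lower late, as were 6768 of the 13792 genes tested. These counts are of the sign alone and were not tested. Unadjusted p-values under 0.05 were found for 6 members, all lower late (background 6.49%, with 3.18% lower and 3.31% higher), which were Pgd (-0.30), Mgst1 (-0.39), Gstp1 (-0.24), Gsto1 (-0.28), G6pdx (-0.17) and Gclc (-0.23), each with an adjusted p of 0.758 or 0.762. Of the 68 further pathway genes 39 were lower late (median -0.03) and none was called. Aldh3a1, called higher after ablation in the paired fit, had -0.41 (adjusted p = 0.758), and limma called it lower late when no count filter was used.

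Pgd (chr4:149149991-149166771, minus strand) had 8247 to 10525 normalized counts in the 6 early dishes (median 9021) and 7064 to 7806 in the 6 late dishes (median 7426). Gstp1, the pi-class transferase, had 2748 to 3117 early and 2299 to 2592 late, and G6pdx had 6645 to 7250 early and 5777 to 6447 late. Early and late dishes did not overlap for these 3 members, which was so for 0.5% of all genes in this direction, and for 0 members in the other (0.421%). Mgst1, a microsomal transferase, overlapped, with 1456 to 2223 early and 959 to 1874 late. Passage P2+16 has only late pairs, P2+15 only early ones, and P2+14 has an early and a late pair, and Gstp1 had a mean of 2748 normalized counts at P2+14, 2892 at P2+15 and 2383 at P2+16. The part of passage was not tested. Summed basal markers overlapped between early (633131 to 781782) and late dishes (619884 to 796687), and so did secretory markers (39228 to 83729 and 30186 to 61612). By gene, 4 of the 5 secretory markers tested were lower late, with a median log2 difference of -0.22, beside -0.24 for the 8 transferase and export genes, and Cyp2f2 had -0.50. Both alveolar type II markers tested (median -0.25), both fibroblast markers (-0.33) and 5 of 6 general epithelial markers (-0.03) were also lower late, whereas both multiciliated markers (0.33), 6 of 10 basal markers (0.03) and 3 of 5 macrophage and leukocyte markers (0.0089) were higher. None of these markers passed the adjusted test (lowest adjusted p = 0.762 in limma, for Krt17), and 1 of them, Krt17, had an unadjusted p-value under 0.05. Their part in the lower levels of the antioxidant genes was not tested.

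**Figure D5:**
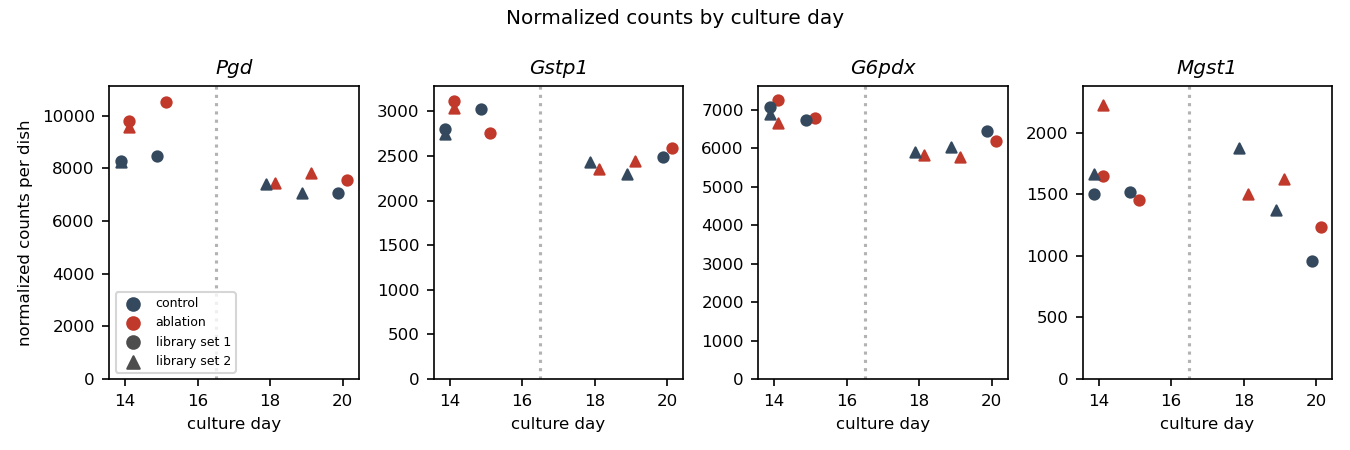
Normalized counts of Pgd, Gstp1, G6pdx and Mgst1 in the 12 dishes by culture day; dark blue marks control dishes, red ablation dishes, circles library set 1 and triangles library set 2, and the dotted line separates early from late cultures. For the first 3 genes all late dishes lie below all early dishes, while those of Mgst1 overlap.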

How the data were processed

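Bulk RNA-seq of poly(A) RNA was measured in 12 libraries, 6 per group, as stranded paired-end reads of 75 bases. The authors ran the nf-core RNA-seq pipeline on GRCm38.p6 with the GENCODE annotation. The signal values used here are deposited normalized counts, made by the authors by dividing read counts by 1 DESeq2 size factor per library. The authors' log2 fold changes, their score columns (standard error and Wald statistic) and their p-values were deposited in the same table and were not used. The exon length of each gene is a further deposited column.

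Members and lists were chosen with earlier results of these data known. Genes with at least 10 normalized counts in 6 libraries were tested with limma 3.58.1 (R 4.3.3) on log2(value + 1) with condition and library set, trended and robust eBayes, and Benjamini-Hochberg adjustment over 13792 genes at 0.05. Fold changes on this scale understate those of low genes. The authors' methods name a batch as second factor without saying what it was, and it was taken as the library set. The other fit replaced the set with the pair as a block. Deviations of dishes of the same number from their group means correlated across genes (r = 0.618 in pair 1, 0.493 in pair 3, 0.205 in pair 4, 0.317 in pair 5, 0.381 in pair 6 and 0.332 in pair 7), while the mean r to other numbers lay from -0.135 to -0.0248, and genes are not independent replicates. Group means were subtracted, so a positive r to the own number by itself pulls the mean r to the others below 0. Dishes of a number also share library set, passage and culture day. The ablation dish correlated best with the control dish of its own number in each pair except pair 4. Culture day was tested on the 6 pair means with the library set, and a different response in the sets as an interaction with the pair as a block.

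In all 12 columns 100% of the low values were whole multiples of a step (within 0.02 of a step). Whole reads were recovered for 9 libraries, 23631212 to 29775699 per library, and only these entered edgeR 4.0.16 and DESeq2 1.42.0 as alternatives (4 complete pairs). The steps of ablation 3, ablation 4 and control 4 (0.999, 0.990 and 1.01) lay too near 1 to be accepted. The planned count test was not the main test for this reason. Log2 values correlated with r of 0.984 to 0.994 between ablation libraries and 0.986 to 0.993 between controls, across genes. The scripts were tested on simulated data.

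Genes were named by rule: an unadjusted p under 0.05 in either fit, the most abundant of each role, the largest change in each further list, and classical NRF2 targets. Other members are named as parts of their role. Promoter windows came from RefSeq.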

Additional observations from a re-analysis of the deposited data

Results flagged for a closer look

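In groups of 6 dishes, the highest or lowest value was compared with its nearest neighbour for 45 genes, which gave 90 groups, and 6 of them passed Dixon's 95% critical value of 0.625. Chance gives about 1 in 20 such groups. Ablation 1 held 5 of the 6. It was highest for Gstm1 (26569 normalized counts, next 15183), Cat (5016, next 3126), Gclm (5891, next 4483) and Sod2 (2359, next 2068), and lowest for Txnrd1 (4962, next 6040). The remaining value was the low Gsta4 of control 3 (37162, next 38951). Ablation 1 also had the highest secretory marker sum of the ablation dishes (83729), and control 1 had the highest Gstm1, Cat, Gclm and Sod2 among the controls. The lowest Txnrd1 among the controls was that of control 7. Without pair 1 the paired log2 fold change was -0.41 for Gstm1 and 0.19 for Txnrd1, in place of -0.31 and 0.15.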

How the results depend on the processing

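The library set fit called 0 genes. The replicate block raised this to 150 genes, 3 of them members, and 1 of the further pathway genes, and it changed no other call of a member. Under the block a pseudocount of 0.5 gave 150 genes and 3 members, a pseudocount of 5 gave 158 and 3, no count filter 356 and 4 (Osgin1, Slc7a11, Xdh and Pgd), TMM 147 and 3, and quantile normalization 168 and 3, while eBayes without trend or robust estimation gave 0 genes. Further pathway genes called numbered 1, 2, 2, 1 and 2 in the first 5 of these fits. Library set 1 alone with the block called 16 genes, 2 of them members (Osgin1 and Nqo1), and set 2 alone 109 genes with 4 members (Osgin1, Slc7a11, Txnrd1 and a lower Gstm1) and 1 further gene (Maff, higher). On recovered reads, DESeq2 called 12 genes and 1 member, and 72 genes and 2 members with the block, while edgeR with the block called 2 genes and 0 members. The block on recovered reads held 4 complete pairs, without pairs 3 and 4. Without a count filter the library set fit called 3 genes, Osgin1 among them (1 member). Paired fits that left out a pair called 8 to 176 genes, 1 to 4 members and 0 to 2 further genes. The lowest counts came without pair 4 (8 genes, Osgin1 the member), and 90 and 77 genes were called without pairs 3 and 5. For culture day, 1 gene was called, 12 without a count filter, 0 without the set term, with control or ablation dishes alone, with plain eBayes or with the day as a number, and 0 to 3 when a pair was left out; members called stayed at 0 in all of these, as for the different response of the sets. Of the further genes, Aldh3a1 was called lower late without a count filter. Without pair 1, Gstm1 had -0.41 and passed the paired fit (adjusted p = 0.0041, in place of -0.31 and 0.0897), and Ggt1 had -0.13 in place of -0.41. Some values that passed neither fit changed sign, among them Maff (0.30) and Txnrd1 (0.15). With quantile normalization, with or without the block, Sqstm1 had 0.0035 and Fth1 0.014. In set 2 alone, with or without the block, Sqstm1 had 0.044, Gpx2 -0.042, Fth1 0.025 and Duox1 -0.080, and in set 1 alone Gsto1 had -0.045, Txnrd1 -0.00062, Hmox1 -0.026 and Maff -0.061. On recovered reads edgeR gave 0.033 for Sqstm1 and 0.0062 for Fth1 (0.034 with the block), and DESeq2 0.038 and 0.011 (0.032). Leaving out a pair, in either fit, gave -0.035 to 0.043 for Sqstm1 (highest without pair 1), -0.034 to 0.088 for Gsto1 (lowest without pair 6), -0.030 to 0.046 for Fth1 (highest without pair 3, and 0.028 without pair 7) and -0.011 to 0.137 for Duox1 (lowest without pair 5). The cause of these shifts was not tested. The paired standard errors of the members, 0.033 to 0.095 on the log2 scale, limit which differences could be seen.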
